A study of Mus musculus with 24 samples.

Results

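The FOS and JUN proteins are the core subunits of activator protein 1 (AP-1), a transcription factor that binds DNA as a dimer. The family has 7 genes in the mouse, of 19505 genes named on the array, Fos, Fosb, Fosl1 and Fosl2 on the FOS side and Jun, Junb and Jund on the JUN side. They were found by gene name among the array's probes other than controls, and 9 of 41174 probes carried the name of a member, with Jund listed under its older name Jund1. Fosl2 and Junb each had 2 probes, and the brighter one over all 24 arrays stands for the gene. In the annotation of the first set's files (mouse build mm7) the 60-base probes used lie at chr12:83478431-83478490 for Fos, chr7:16985502-16985561 for Fosb, chr19:5350302-5350361 for Fosl1, chr5:31189767-31189826 for Fosl2, chr4:94441779-94441838 for Jun, chr8:83563097-83563156 for Junb and chr8:69154598-69154657 for Jund. The probes for Fos and for Jun were each printed in 10 spots, which were averaged. All 7 genes were well above background on all 24 arrays and none was saturated on any array, so no member was lost to the filter on dim probes.

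FOS proteins do not pair with one another and need a JUN partner to bind DNA, whereas JUN proteins can pair with each other, with FOS proteins and with some members of the ATF family. Fos, Fosb, Jun and Junb are classical immediate early genes, whose transcription rises within minutes of a growth factor or a stress signal through existing factors. Fosl1 and Fosl2 encode the FOS-related antigens FRA1 and FRA2, which lack a strong activation domain and tend to appear later. Jund is the member that is usually present in resting cells. In fibroblasts AP-1 is best known for driving genes of matrix turnover, cytokines and cell-cycle entry.

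RNA came from immortalized mouse embryonic fibroblasts that lack Ku70 (gene deletion Ku70, Xrcc6), a protein of DNA double-strand break repair. Every group, untreated controls included, carried this deletion, and a single cell line was studied. The first array set held 15 arrays, namely untreated controls, cells given 20 mM potassium bromate (KBrO3 alone), which is an oxidizing agent, and cells given 20 mM KBrO3 together with 150 µM bisphenol A (co-exposure), the treated cells at 4 and 24 hr. The second set held 9 arrays, namely its own untreated controls and cells given 150 µM bisphenol A (BPA alone) at 4 and 24 hr. Each group had 3 arrays. They were biological replicates, as the study's methods describe them. The oxidant was left on for 1 hr and then washed off, while BPA was present from 1 hr before the oxidant until harvest. The cells in BPA alone were in BPA slightly longer by the methods than by the labels. The first set's controls are labeled 4 hr and the second set's carry no time, so no control is labeled 24 hr, and any drift of untreated cells between 4 and 24 hr cannot be told apart from the effects at 24 hr.

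Between 57.7% and 68.1% of the spots on an array of the first set were well above background, against 76.4% to 79.4% in the second. The median residual SD of a probe tested in both sets was 0.106 log2 units in set 1 and 0.318 in set 2, so the second set resolves smaller changes less well. Of 12 fibroblast markers, 11 were well above background on all 24 arrays, with Thy1 so on 19. The endothelial genes Pecam1 and Tie1 and the blood cell gene Ptprc were so on 0 of 24. Between these lay the epithelial genes Cdh1 (9 arrays), Epcam (3) and Cldn4 (1), the endothelial gene Cdh5 (8) and the blood cell genes Itgam (8) and Adgre1 (7). Other listed markers were well above background on all 24 arrays, namely the endothelial genes Kdr and Tek, the blood cell genes Cd68 and Cd3e and the epithelial genes Krt5 and Krt14. The summed signal of the 5 blood cell markers was 0.212 to 0.255 times the 75th percentile in the first set's controls, beside 1910 to 2020 for the fibroblast markers. It was higher in all 4 treated groups of that set, at 0.716 to 0.756 for KBrO3 alone and 0.524 to 0.528 for co-exposure at 4 hr, and at 0.352 to 0.367 and 0.471 to 0.538 at 24 hr. Of these markers Cd68 was called higher in all 4 groups, at 2.25 and 1.66 at 4 hr and 1.16 and 1.87 at 24 hr. Cd3e was called only at 24 hr of co-exposure, lower (-0.67), and the others were not tested in this set. At 4 hr the sums of the endothelial markers (0.111 to 0.151 in those controls, 0.180 to 0.193 with KBrO3 alone, 0.171 to 0.221 with co-exposure) and of the epithelial markers (0.141 to 0.211, 0.222 to 0.288 and 0.254 to 0.275) were also higher without overlap, with Kdr (1.52 with KBrO3 alone and 1.41 with co-exposure) and Krt14 (0.92 and 1.77) called higher in both. The part of these markers in the results was not tested. Xrcc6 itself was well above background on all 24 arrays, at -0.60 to 0.73 on the scale explained below, and a probe outside a deleted part of the gene would not check the deletion. Each set lay on 5 slides, and the groups were spread unevenly over them.

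Promoter sequence is shown for 4 of the immediate early members, since their transcripts moved together after KBrO3. Each stretch is from RefSeq (build GRCm38.p6), runs 5′ to 3′ on the strand of the gene, and covers 250 bases before and 50 bases from the annotated start. Capitals mark the letters TGACG, the sequence TGACATCA or a TATA box (TATAAA). The Fos stretch lies at chr12:85473640-85473939 on the plus strand, Fosb at chr7:19309996-19310295, Jun at chr4:95052173-95052472 and Junb at chr8:84978699-84978998, the latter 3 on the minus strand.
Fos: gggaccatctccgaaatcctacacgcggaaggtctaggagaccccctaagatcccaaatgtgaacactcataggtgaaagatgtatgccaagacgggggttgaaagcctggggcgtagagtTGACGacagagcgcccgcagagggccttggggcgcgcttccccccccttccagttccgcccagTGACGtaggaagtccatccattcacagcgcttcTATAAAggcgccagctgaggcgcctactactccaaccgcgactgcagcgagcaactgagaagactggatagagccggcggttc
Fosb: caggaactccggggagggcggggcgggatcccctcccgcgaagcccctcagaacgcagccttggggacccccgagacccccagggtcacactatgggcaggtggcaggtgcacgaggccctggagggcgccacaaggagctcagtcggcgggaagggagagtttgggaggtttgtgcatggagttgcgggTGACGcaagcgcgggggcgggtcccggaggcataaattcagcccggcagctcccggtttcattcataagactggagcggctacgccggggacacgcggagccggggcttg
Jun: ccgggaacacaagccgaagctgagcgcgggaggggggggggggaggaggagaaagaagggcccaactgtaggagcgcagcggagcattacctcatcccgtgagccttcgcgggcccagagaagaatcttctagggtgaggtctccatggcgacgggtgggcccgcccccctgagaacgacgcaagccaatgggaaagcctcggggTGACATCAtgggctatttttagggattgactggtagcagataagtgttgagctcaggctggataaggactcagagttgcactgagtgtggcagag
Junb: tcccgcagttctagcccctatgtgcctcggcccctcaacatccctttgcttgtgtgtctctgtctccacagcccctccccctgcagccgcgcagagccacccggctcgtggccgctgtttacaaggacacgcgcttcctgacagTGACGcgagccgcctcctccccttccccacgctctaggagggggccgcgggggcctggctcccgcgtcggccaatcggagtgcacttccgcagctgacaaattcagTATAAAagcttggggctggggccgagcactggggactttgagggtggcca

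Promoters were listed for 6 of the 7 members, and Fosl1 was not among them. Motifs were searched on both strands. The letters TGACG, which are part of the cyclic AMP response element TGACGTCA, were in 3 of the 6 promoters (Fos, Fosb and Junb) and in 20.8% of all 32851 promoters of the same length. TGACATCA, the variant known from the Jun promoter, was in Jun alone of the 6 and in 3.62% of all promoters. TATAAA was in Fos and Junb and in 13.6% of all. The AP-1 site TGACTCA was in none of the 6 and in 5.2% of all, TGACGTCA in none and in 1.79%, and the CArG box, bound by serum response factor, in none and in 1.63%. Counted from the annotated first base, with negative positions before it, TGACG began at -129 and -66 and the TATA box at -33 in Fos, and TGACATCA began at -45 in Jun. TATAAA in Junb began at the annotated first base. TGACG was added to the search after the sequences had been read. A match is a description of these letters, and a missing match says only that they are not in this window.

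Levels are given as log2 signal relative to the 75th percentile of the same array, so a value of 0 means a signal equal to that percentile. Levels of different genes come from different probes and are not compared. A member was called changed when limma's Benjamini-Hochberg adjusted p over all probes tested was below 0.05 and the fold change was beyond 1.5.

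**Figure D1:**
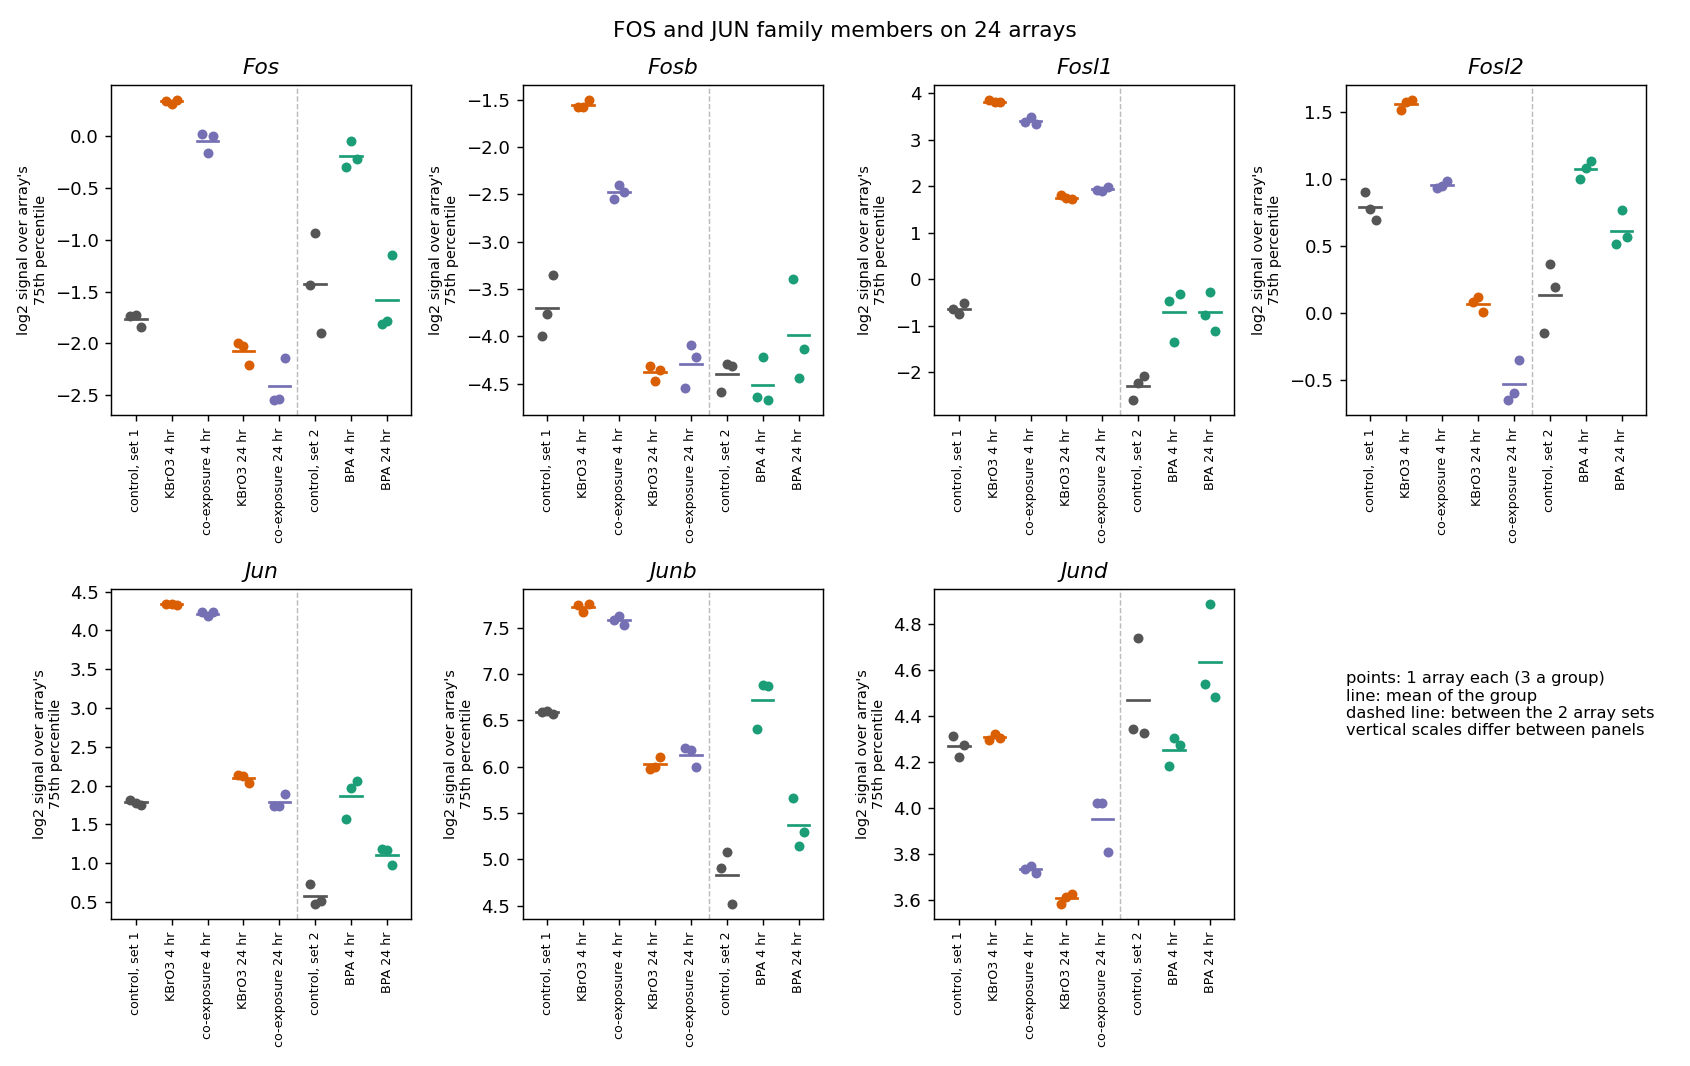
Each panel plots 1 family member, with log2 signal relative to the array's 75th percentile on the vertical axis and the 8 groups on the horizontal axis. Points are single arrays, lines are means of 3 arrays, the dashed line parts the 2 array sets and vertical scales differ between panels. For Fos, Fosb, Fosl1, Jun and Junb the arrays of KBrO3 alone at 4 hr lie above all control arrays of their set and above those at 24 hr.

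KBrO3 alone at 4 hr was compared with the control to find which subunits responded to the oxidant. Of the 7 members, 6 were called, all higher, where 23.0% of the 27309 probes tested were called higher and 22.5% lower. Fosl1 had the greatest fold among the members, followed by Jun, Fosb, Fos, Junb and Fosl2, and Jund was not called. The median log2 fold change of the 7 members was 2.10, against 0.06 over all probes tested. In such bulk RNA, fewer cells with a transcript and less of it per cell cannot be told apart. Of the 6 calls, 5 also met the stricter criterion that the study's methods name, a Bonferroni-adjusted p below 0.01 with a change beyond 1.5-fold.

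On the FOS side, Fos was at -1.73, -1.73 and -1.85 in the 3 controls and at 0.34, 0.31 and 0.35 in KBrO3 alone at 4 hr. The groups did not overlap, and the rise was 4.29-fold (log2 fold change 2.10, SE 0.10, limma adjusted p = 1.53e-09). Fosb stood at -3.99, -3.77 and -3.36 in the controls and at -1.58, -1.58 and -1.50 after treatment, a rise of 4.44-fold (2.15, SE 0.14, limma adjusted p = 3.16e-08). Its 3 control arrays had the widest spread of a member in this set's controls (SD 0.32 log2 units). With normexp background correction of the raw signal in place of the software's processed signal, the Fosb change was 0.55 with an adjusted p of 0.215 in limma and was no longer called.

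Fosl1, whose product FRA1 is known from motile and transformed cells, was at -0.65, -0.75 and -0.51 in the controls. After KBrO3 alone the 3 arrays read 3.86, 3.81 and 3.81, far above every control. The rise was 22.0-fold (4.46, SE 0.06, limma adjusted p = 5.44e-14). Fosl2 read 0.90, 0.78 and 0.70 in the controls and 1.52, 1.57 and 1.59 after treatment, a smaller rise of 1.70-fold (0.77, SE 0.08, limma adjusted p = 1.25e-06). Its dimmer probe, which lies in another part of the transcript, gave 0.90 with an adjusted p of 3.41e-06 in limma.

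On the JUN side, Jun, the strongest activator of the JUN proteins, read 1.82, 1.78 and 1.76 in the controls and 4.34, 4.34 and 4.33 after KBrO3 alone. The replicates lay close together in both groups, and the rise was 5.87-fold (2.55, SE 0.05, limma adjusted p = 3.98e-13). Junb, which can also restrain the action of Jun, went from 6.59, 6.60 and 6.57 to 7.74, 7.66 and 7.76, a rise of 2.20-fold (1.14, SE 0.06, limma adjusted p = 2.57e-09). The second Junb probe, which shares the 22 bases ttcgtgtctaaagtctatttta with the first, gave 1.19, so its reading is not independent of the first. Jund read 4.31, 4.22 and 4.28 in the controls and 4.30, 4.32 and 4.30 after treatment. These groups overlapped, with a log2 fold change of 0.04 and a 95% interval of -0.08 to 0.15, and the sign turned under quantile normalization (-0.18).

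One control array shared a slide with the 3 arrays of KBrO3 alone at 4 hr. Within that slide the log2 difference was 4.33 for Fosl1, 2.58 for Jun, 2.18 for Fos, 1.80 for Fosb, 1.15 for Junb, 0.86 for Fosl2 and 0.03 for Jund. All 6 differences of the members called kept their direction within the slide. For co-exposure at 4 hr and for both treatments at 24 hr, no control lay on the same slide, so slide and treatment cannot be told apart there.

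Co-exposure at 4 hr was set against the same 3 controls, so its changes are not independent of those of KBrO3 alone. In this comparison 5 of the 7 members were called, all higher, where 29.9% of the probes tested were called higher and 24.4% lower. They were Fosl1 (16.5-fold), Jun (5.40-fold), Fos (3.30-fold), Fosb (2.35-fold) and Junb (1.99-fold). The 3 arrays of Fosl1 read 3.39, 3.49 and 3.34 and those of Jun 4.23, 4.18 and 4.24, all above every control. Fos read 0.02, -0.16 and 0.01, and Fosb -2.55, -2.40 and -2.47. Of the 12 fibroblast markers 5 were called lower in this group. The Fosb rise had an adjusted p of 5.61e-06 in limma, but with normexp background correction its sign turned (-0.15).

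Fosl2 at 4 hr of co-exposure read 0.94, 0.95 and 0.99. These values lay just above the highest control at 0.90, with a log2 fold change of 0.16 and an adjusted p of 0.0646 in limma, and the gene was not called. Jund read 3.73, 3.75 and 3.72, below all 3 controls. Its difference of -0.54 (SE 0.05, limma adjusted p = 1.30e-06) stayed short of 1.5-fold, and it went past that limit with quantile normalization (-0.66) and with scaling to the array median (-0.68).

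**Figure D2:**
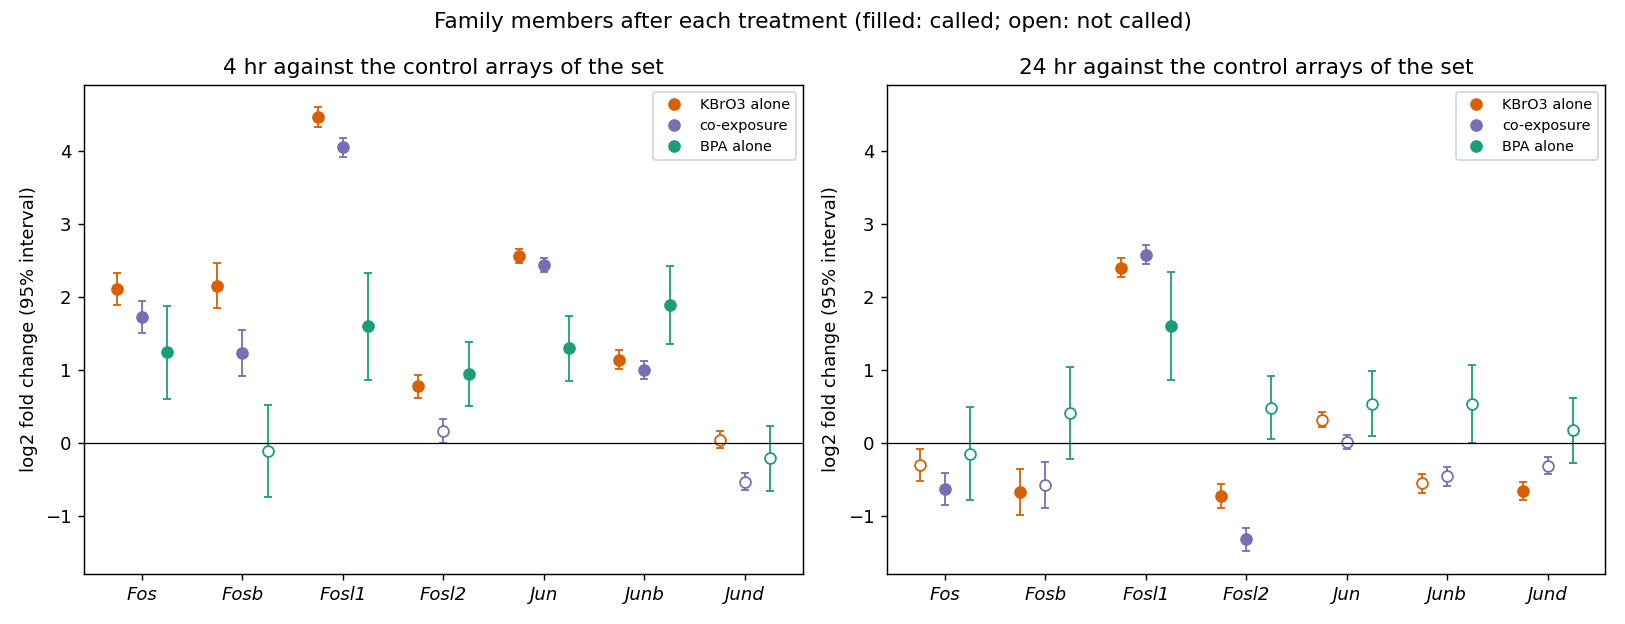
Log2 fold changes of the 7 members against the controls of their own set are plotted on the vertical axis with 95% intervals from limma, at 4 hr on the left and 24 hr on the right, for 3 arrays per group. Filled points were called and open points were not. Fosl1 stands at 4.46 after KBrO3 alone at 4 hr and at 2.40 at 24 hr, and is the one member called higher at 24 hr in each of the 3 treatments.

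BPA alone at 4 hr was compared with the second set's controls. Here 5 of the 7 members were called, all higher, where 2.83% of the 31809 probes tested were called higher and 1.41% lower. They were Junb, Fosl1, Jun, Fos and Fosl2, and the median log2 fold change of the 7 members was 1.24, against -0.03 over all probes tested. None of the 5 met the Bonferroni criterion, for which limma gave 0 members, and 5 members had an unadjusted p below 0.05.

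Junb read 4.91, 5.08 and 4.52 in these controls and 6.41, 6.88 and 6.87 in BPA alone. The groups did not overlap, and the rise was 3.69-fold (1.89, SE 0.24, limma adjusted p = 0.00404). Its second probe gave 2.15. Jun read 0.74, 0.47 and 0.51 in the controls and 1.57, 1.97 and 2.06 in BPA alone, a rise of 2.45-fold (1.29, SE 0.20, limma adjusted p = 0.00878).

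On the FOS side, Fosl1 read -2.61, -2.23 and -2.09 in the controls and -0.46, -1.36 and -0.32 in BPA alone. The second array was well below the other two but above all controls, and the rise was 3.02-fold (1.59, SE 0.33, limma adjusted p = 0.0295). Fos read -1.44, -0.94 and -1.90 in the controls, a spread of almost 1 log2 unit, and -0.30, -0.04 and -0.22 in BPA alone, a rise of 2.35-fold (1.24, SE 0.28, limma adjusted p = 0.0435). Fosl2 read -0.15, 0.36 and 0.19 against 1.00, 1.08 and 1.14, a rise of 1.92-fold (0.94, SE 0.19, limma adjusted p = 0.0298). Its dimmer probe gave 0.97 with an adjusted p of 0.0539 in limma and was not called.

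The other two members were not called at 4 hr of BPA alone. Fosb read -4.58, -4.29 and -4.31 in the controls and -4.64, -4.22 and -4.68 in BPA alone, with overlapping groups and a log2 fold change of -0.11 (95% interval -0.75 to 0.52). Jund gave -0.22 (95% interval -0.67 to 0.23), and its 3 arrays lay just below the lowest control.

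These calls rested on all 9 arrays of the second set. When any 1 array of the comparison was left out, between 1 and 4 of the 5 calls were left, and Junb was called each time. The count was 1 without the third array of BPA alone at 4 hr, when Jun had an adjusted p of 0.0619 in limma, and it was 2 without the first array of that group or without the first or the third control. Within the slide that held 1 control and 2 arrays of BPA alone at 4 hr, the log2 differences were 1.73 for Junb, 2.22 for Fosl1, 1.08 for Jun, 1.17 for Fos and 1.22 for Fosl2. With normexp background correction or with slide as a fixed block no member was called, although all 5 log2 fold changes were still 0.82 or more.

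By 24 hr after KBrO3 alone, the family had parted. Against the control 4 members were called, 1 higher and 3 lower, where 14.1% of the probes tested were called higher and 19.1% lower. Fosl1 alone was higher, and Fosb, Fosl2 and Jund were lower. Fibroblast markers moved with this group, since 11 of 12 were called lower and their summed signal fell from 1910 to 2020 times the 75th percentile in the controls to 731 to 821, and their part in the members' values was not tested.

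Fosl1 at 24 hr of KBrO3 alone read 1.80, 1.74 and 1.73, below its 4 hr values and above every control. It was 5.26-fold above the control (2.40, SE 0.06, limma adjusted p = 1.53e-11). Jun read 2.13, 2.12 and 2.04, also above every control, but its difference of 0.32 (SE 0.05, limma adjusted p = 6.49e-05) stayed short of 1.5-fold. The other 5 members lay below the controls without overlap, as did 35.9% of the probes tested.

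Fosl2 read 0.08, 0.12 and 0.00, which was 1.66-fold lower than the control (-0.73, SE 0.08, limma adjusted p = 3.33e-06). Jund read 3.58, 3.61 and 3.62, 1.58-fold lower (-0.66, SE 0.05, limma adjusted p = 3.48e-07). For Fosb, at -4.32, -4.47 and -4.35, the fall was 1.59-fold (-0.67, SE 0.14, limma adjusted p = 0.00123), and without the third control array it was -0.50 and no longer beyond 1.5-fold. These 3 falls were small enough that another scaling moved them across the limit. With scaling to the array median none of the 3 was called (-0.58 for Fosl2, -0.52 for Jund and -0.52 for Fosb), and with quantile normalization Fosl2 alone was.

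Junb and Fos were lower at 24 hr of KBrO3 alone without being called. Junb read 5.97, 6.00 and 6.11, a difference of -0.56 (SE 0.06, limma adjusted p = 3.37e-06), and its second probe went past the limit at -0.97. Without the third array of KBrO3 alone at 24 hr the first probe also did (-0.60). Fos read -2.00, -2.02 and -2.20, a difference of -0.31 (SE 0.10, limma adjusted p = 0.0183).

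Co-exposure at 24 hr, set against those controls again, had 3 members called, 1 higher and 2 lower, where 15.9% of the probes tested were called higher and 23.5% lower. Fosl1 read 1.92, 1.90 and 1.99, a rise of 5.95-fold (2.57, SE 0.06, limma adjusted p = 4.37e-12). Fosl2 read -0.65, -0.60 and -0.35, far below the controls, and was 2.51-fold lower (-1.33, SE 0.08, limma adjusted p = 1.07e-08). Its dimmer probe gave -1.01. This was the only fall of a member at 24 hr that was called under each alternative setting run on the comparison.

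Fos at 24 hr of co-exposure read -2.55, -2.54 and -2.14. The third array lay nearer to the controls than the other two, and the fall was 1.56-fold (-0.64, SE 0.10, limma adjusted p = 1.16e-04). Without the first or the second array of this group the change was -0.57 or -0.58 and no longer called. Fosb was lower by a log2 difference of -0.58, just short of 1.5-fold, and was called when the first control was left out (-0.72), the second control (-0.61), the second (-0.68) or the third (-0.61) array of co-exposure.

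On the JUN side no member was called by its brighter or only probe at 24 hr of co-exposure. Jun read 1.74, 1.74 and 1.89, with 2 arrays below and 1 above all of its controls, with a log2 fold change of 0.01 and a 95% interval of -0.09 to 0.11. Junb and Jund lay below all controls at differences of -0.46 and -0.32, neither beyond 1.5-fold. The second Junb probe did go beyond it at -0.76 (1.70-fold lower, limma adjusted p = 1.27e-07) and met the Bonferroni criterion, and the mean of both probes was -0.61 and called. The summed signal of the fibroblast markers was 511 to 595 in this group, again with 11 of 12 called lower, and their part in these values was not tested.

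BPA alone at 24 hr left 1 member called, Fosl1, higher, where 1.39% of the probes tested were called higher and 2.02% lower. Its arrays read -0.76, -0.27 and -1.12, all above the controls, and the rise was 3.02-fold (1.59, SE 0.33, limma adjusted p = 0.0335). The Bonferroni criterion gave 0 members in limma, and 3 had an unadjusted p below 0.05. Fosl1 was no longer called when any 1 of the 3 controls or the first or second array of BPA alone at 24 hr was left out, with adjusted p-values of 0.0657 to 0.107 and log2 fold changes of 1.37 to 1.70. Within the 2 slides that held both groups its difference was 1.47 and 1.82. It was also not called with normexp background correction, slide as a fixed block or the replicate block. The same held without the filter on dim probes and in a fit of only the groups compared.

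For the remaining members the intervals at 24 hr of BPA alone were wide. Jun stood at 0.53 (95% interval 0.09 to 0.98), Junb at 0.53 (-0.01 to 1.07) and Fosl2 at 0.48 (0.04 to 0.91), each without overlap with the controls and with an adjusted p of 0.196 to 0.280 in limma. Fosb stood at 0.41, Jund at 0.17 and Fos at -0.16, all with overlapping groups.

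The decline between 4 and 24 hr was tested directly. No slide held both times of a treatment, so for KBrO3 alone slide and time cannot be told apart. For co-exposure the slides of the times were linked only through arrays of KBrO3 alone at 24 hr. After KBrO3 alone all 7 members were called lower at 24 hr than at 4 hr, where 27.9% of the probes tested were called lower and 19.9% higher and the median over all probes was -0.12. Fosb fell 7.08-fold, Fos 5.31-fold, Jun 4.72-fold, Fosl1 4.19-fold, Junb 3.24-fold, Fosl2 2.82-fold and Jund 1.63-fold. Jund was not called with quantile normalization (-0.36) or with scaling to the array median (-0.55). After co-exposure 6 members were called lower, where 35.0% of the probes tested were called lower and 20.6% higher and the median over all probes was -0.22. Those falls were 5.37-fold for Jun, 5.14-fold for Fos, 3.51-fold for Fosb, 2.81-fold for Fosl2, 2.77-fold for Fosl1 and 2.74-fold for Junb.

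Jund went the other way after co-exposure, with a difference of 0.22 that stayed short of 1.5-fold, and it was called higher with the array median subtracted (0.68). In BPA alone 2 members were called lower at 24 hr than at 4 hr, Fos at 2.62-fold and Junb at 2.56-fold, where 2.79% of the probes tested were called lower and 1.00% higher. Either call was lost when one of several single arrays was left out, Fos in 5 of 6 such fits and Junb in 4 of 6, and the Bonferroni criterion gave 0 members in limma, with 4 below an unadjusted p of 0.05. Fosl1 in BPA alone had a log2 difference of 0.00 between the times (95% interval -0.74 to 0.74).

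What BPA added to the oxidant was tested by setting co-exposure against KBrO3 alone. At 4 hr the co-exposed arrays of all 7 members lay below those of KBrO3 alone, without overlap, as did 35.9% of the probes tested. Of these, 2 were called, both lower, where 8.21% of the probes tested were called lower and 11.9% higher. Fosb was 1.89-fold lower (-0.92, SE 0.14, limma adjusted p = 2.01e-04) and Fosl2 1.52-fold lower (-0.61, SE 0.08, limma adjusted p = 3.67e-05), the latter just past the limit. The dimmer Fosl2 probe gave -0.72 and was called too. The fibroblast marker sums were 1390 to 1420 with co-exposure and 1740 to 1840 with KBrO3 alone at 4 hr. Vim (-0.62) and S100a4 (-0.72) were called lower between these groups and no fibroblast marker higher. Their part in the members' values was not tested.

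Jund had the smallest adjusted p of the 7 in that comparison, with a difference of -0.57 (SE 0.05, limma adjusted p = 4.18e-06), and was 1.49-fold lower. Fosl1 differed by -0.42 and Fos by -0.38. Jun at -0.12 (95% interval -0.22 to -0.02) and Junb by its brighter probe at -0.14 (-0.27 to -0.02) differed least. The second Junb probe gave -0.32 (limma adjusted p = 5.44e-04). No slide held both groups at 4 hr, so slide and treatment cannot be told apart. With quantile normalization Fosl2 moved to -0.56 and was not called, and with normexp background correction neither was (-0.71 for Fosb and -0.57 for Fosl2). The Bonferroni criterion gave 0 members in limma, and 7 had an unadjusted p below 0.05.

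At 24 hr a single member was called between co-exposure and KBrO3 alone, Fosl2, lower, where 8.23% of the probes tested were called lower and 5.35% higher. Fosl2 was 1.52-fold lower (-0.60, SE 0.08, limma adjusted p = 4.12e-05), and within the slide that held 2 arrays of each group the difference was -0.69. It fell short of 1.5-fold without the second array of KBrO3 alone (-0.58) or the first (-0.54) or second (-0.57) array of co-exposure, with scaling to the array median (-0.43), with normexp (-0.56) and with the mean of its probes, since its dimmer probe gave -0.42.

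Jund was higher in co-exposure at 24 hr by 0.34 (SE 0.05, limma adjusted p = 2.31e-04) and Jun lower by 0.31 (SE 0.05, limma adjusted p = 1.66e-04), both without overlap and both short of 1.5-fold. Within the shared slide these differences were 0.40 and -0.34. Fosb at 0.09 and Junb by its brighter probe at 0.10 overlapped between the groups, while the second Junb probe gave 0.20 without overlap. The fibroblast marker sums were 511 to 595 with co-exposure and 731 to 821 with KBrO3 alone at 24 hr. Thy1, Pdgfrb, Lum and S100a4 were called lower between these groups and no fibroblast marker higher. Their part in the members' values was not tested. The Bonferroni criterion gave 0 members in limma, and 5 had an unadjusted p below 0.05.

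Whether the difference between co-exposure and KBrO3 alone changed from 4 to 24 hr was tested as an interaction. No slide held both groups at 4 hr or both times of a group, so slide and this change cannot be told apart. The change was called for 3 members, all with a higher difference at 24 hr, where 11.0% of the probes tested were called in that direction and 16.3% in the other. Fosb moved by 1.01 (SE 0.20, limma adjusted p = 0.00140), Jund by 0.92 (SE 0.08, limma adjusted p = 2.69e-06) and Fosl1 by 0.60 (SE 0.09, limma adjusted p = 1.60e-04). Jund, below KBrO3 alone at 4 hr and above it at 24 hr, was the one member of these that also met the Bonferroni criterion. Fosl1 was close to the 1.5-fold limit and was not called with quantile normalization (0.46), with slide as a random block (0.54), in 1 fit of all 24 arrays (adjusted p of 0.181 in limma) or without the first array of KBrO3 alone at 4 hr, the third at 24 hr, the first or the third of co-exposure at 4 hr or the third at 24 hr (0.56 to 0.58). With normexp background correction limma called 0 of the members. Fosl2 had a change of 0.00 (95% interval -0.23 to 0.24) by its brighter probe and of 0.30 (0.00 to 0.61) by its dimmer one.

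**Figure D3:**
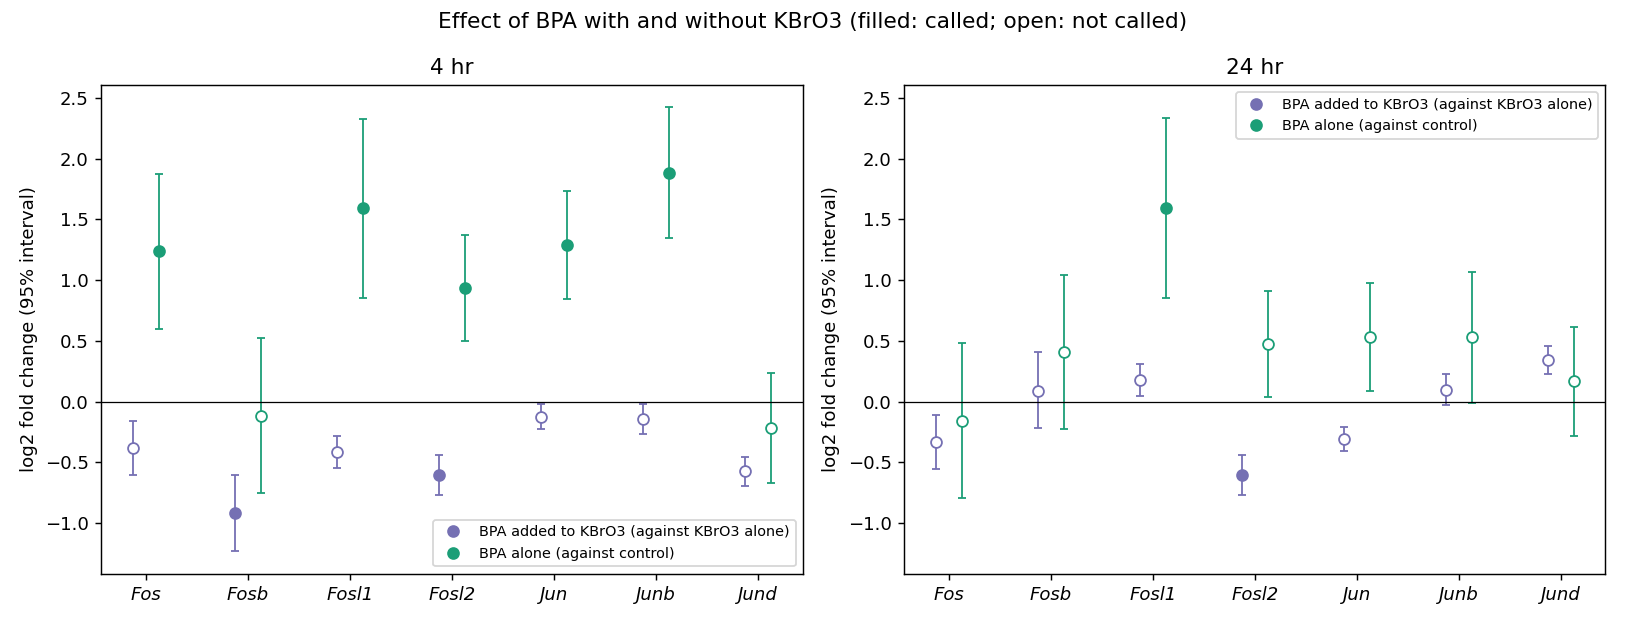
Log2 fold changes with 95% intervals (vertical axis) show the effect of BPA added to KBrO3, as co-exposure against KBrO3 alone, beside the effect of BPA alone against its own control, for the 7 members at 4 hr on the left and 24 hr on the right, with 3 arrays per group. Filled points were called. At 4 hr Junb stands at -0.14 when BPA was added to KBrO3 and at 1.89 in BPA alone.

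The effect of BPA on top of KBrO3 was then compared with the effect of BPA alone in a fit of all 24 arrays. At 4 hr, 5 members were called, all with a lower effect of BPA when it was added to KBrO3, where 7.42% of the 27179 probes tested in both sets were called in that direction and 8.50% in the other. Junb differed by -2.03 (SE 0.21, limma adjusted p = 2.52e-06), Fosl1 by -2.01 (SE 0.31, limma adjusted p = 2.17e-04) and Fos by -1.62 (SE 0.28, limma adjusted p = 5.64e-04). Fosl2 differed by -1.54 (SE 0.16, limma adjusted p = 3.76e-06) and Jun by -1.41 (SE 0.16, limma adjusted p = 5.72e-06). These 5 are the members that BPA alone raised, and the comparison shares those arrays with it. All 5 were called in each of the 12 fits that left out 1 array, while 3 were with the Bonferroni criterion and with normexp background correction, which lost Fos and Fosl1. The sets differ in slides, software version and spread, which cannot be told apart from the treatments in this comparison, and with weights estimated for each set the same number of members was called. The fit shares a single spread per probe over both sets, whose median residual SDs were 0.106 and 0.318. For all 5 members called the SE was below that of BPA alone at 4 hr, such as 0.16 against 0.20 for Jun. These SEs and p-values may be too small.

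At 24 hr, 3 members were called, again all lower, where 2.39% of the probes tested were called in that direction and 1.99% in the other. Fosl1 differed by -1.41 (SE 0.31, limma adjusted p = 0.00996), Fosl2 by -1.08 (SE 0.16, limma adjusted p = 5.38e-04) and Jun by -0.84 (SE 0.16, limma adjusted p = 0.00322). These SEs and p-values rest on the same shared spread and may be too small. The Bonferroni criterion gave 0 members in limma, and 3 had an unadjusted p below 0.05. With normexp background correction or a fit of only the groups compared, 0 members were called.

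Genes around the family were read from lists of AP-1 partners, upstream kinases and factors, regulators of turnover, and targets. Among 7 other dimer partners, Atf3, a stress-induced partner of JUN proteins, rose by 5.89 log2 units after KBrO3 alone, by 6.51 after co-exposure and by 2.56 in BPA alone at 4 hr. No other partner was called higher at 4 hr in either group given the oxidant, where 23.0% of all probes were called higher and 22.5% lower with KBrO3 alone and 29.9% and 24.4% with co-exposure. Batf and Batf2, partners of JUN best known from lymphocytes, were called lower in both, at -1.69 and -0.99 after KBrO3 alone and at -0.85 and -1.08 after co-exposure. In BPA alone at 4 hr both were called higher instead, at 1.25 and 1.76, where 2.83% of all probes were called higher and 1.41% lower.

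Of 18 kinases of the JNK, p38 and ERK branches tested in the first set, 5 were called higher and 4 lower after KBrO3 alone at 4 hr, and 6 and 4 after co-exposure. These shares lie near those of all probes tested, 23.0% higher and 22.5% lower after KBrO3 alone and 29.9% and 24.4% after co-exposure. Map2k3, which activates p38, rose by 2.15 and 2.02 respectively, and Map3k7, which encodes TAK1, by 1.08 and 1.23. Map2k4, a kinase upstream of JNK, rose by 1.06 after KBrO3 alone. Called lower were, among others, Mapk11 (-1.15), Map2k6 (-1.12) and Mapk12 (-0.83) after KBrO3 alone, and Mapk12 (-1.31), Mapk3 (-1.08) and Map3k4 (-0.72) after co-exposure. In BPA alone at 4 hr, 1 of 19 was called, Map2k6, lower at -1.13, where 2.83% of all probes were called higher and 1.41% lower.

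Serum response factor and its partners drive the immediate early genes in response to growth factors. Of 6 genes tested from a list of these factors and Creb1, 1 was called higher and 1 lower after KBrO3 alone at 4 hr. Those were Elk4 (1.16) and Mrtfa (-0.61). Only Elk4 (1.29) was called after co-exposure and only Mrtfb (1.27) in BPA alone, both higher. Of all probes 23.0% were called higher and 22.5% lower after KBrO3 alone, and 29.9% and 24.4% after co-exposure. In BPA alone these shares were 2.83% and 1.41%. Srf and Creb1 were not called at 4 hr against the control, at 0.45 and 0.58 after KBrO3 alone. Of 9 genes that remove or restrain JUN and FOS products, 3 were called higher and 3 lower after KBrO3 alone at 4 hr, where 23.0% and 22.5% of all probes were. Fbxw7, a ubiquitin ligase subunit that targets JUN, rose by 1.15, and Zfp36, which destabilizes short-lived transcripts, by 1.07. Det1 (-1.22), Pdcd4 (-0.93) and Men1 (-0.71) were lower. After co-exposure 4 were higher, with Zfp36 at 1.16 and Fbxw7 at 1.10, and 2 were lower, Det1 and Men1, where 29.9% and 24.4% of all probes were. In BPA alone at 4 hr limma called 0 of the 9, where 2.83% of all probes were called higher and 1.41% lower, and 3 had an unadjusted p below 0.05.

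Most of the AP-1 targets listed were higher at 4 hr after either treatment with KBrO3. Of 18 tested, 13 were called higher and 1 lower after KBrO3 alone, with a median log2 fold change of 1.07, and 15 higher and 2 lower after co-exposure, with a median of 1.34, against 0.06 and 0.08 over all probes. Of all probes tested 23.0% were called higher and 22.5% lower with KBrO3 alone, and 29.9% and 24.4% with co-exposure. Ptgs2, the inducible cyclooxygenase, rose by 6.08 with KBrO3 alone and by 6.06 with co-exposure, and Hbegf, a growth factor of the EGF family, by 5.37 and 4.98. Vegfa, an angiogenic growth factor, rose by 3.70 after co-exposure. Ccnd1, which encodes cyclin D1, was called lower in both (-0.70 and -0.80), as was the keratin gene Krt18 after co-exposure (-1.40). In BPA alone at 4 hr, 7 targets were called, all higher, where 2.83% of all probes were, among them Il6 at 5.66, Ptgs2 at 2.94 and the collagenase gene Mmp13 at 2.67.

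At 24 hr the targets were split. After KBrO3 alone 6 were called higher and 7 lower, with a median of -0.14, where 14.1% and 19.1% of all probes were and their median was -0.02. After co-exposure 6 were higher and 9 lower, with a median of -0.54, where 15.9% and 23.5% of all probes were and their median was -0.07. In BPA alone at 24 hr 4 were called, all higher, where 1.39% of all probes were, namely Mmp13, Il6, Sphk1 and Vegfa. Ptgs2, Hbegf, Mmp10 and Plaur were higher at 24 hr after both KBrO3 alone and co-exposure, as was Ccnd1 (1.04 and 0.69), which had been lower at 4 hr. Il6 was lower after both, at -1.95 and -1.47. The 24 hr genes were chosen for naming after their values were seen.

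**Figure D4:**
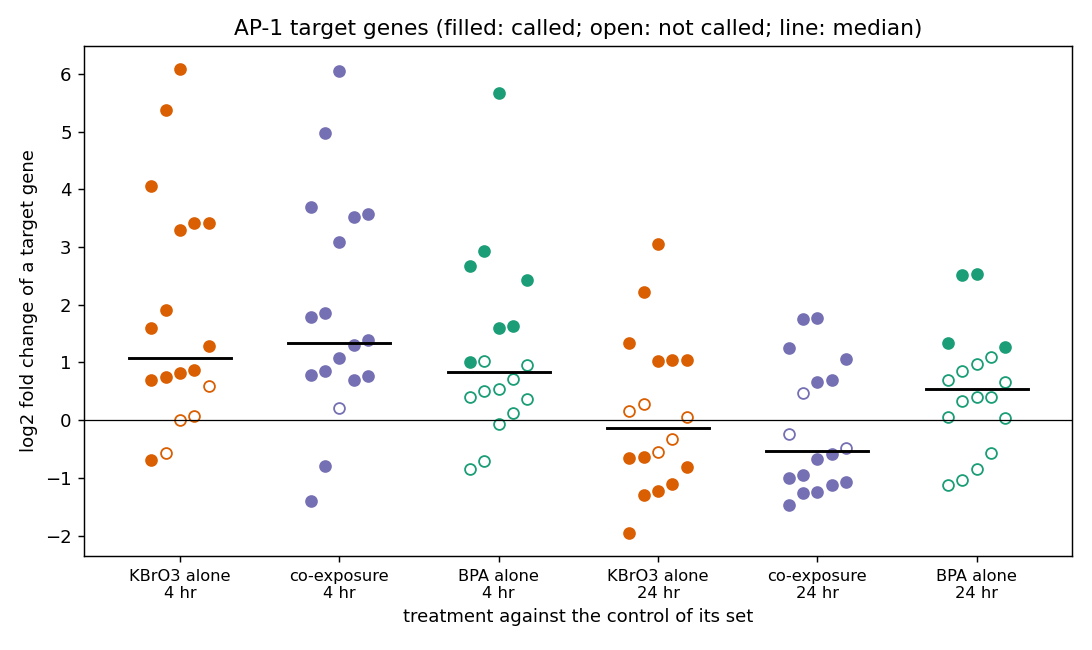
Each point is the log2 fold change (vertical axis) of 1 AP-1 target gene against the controls of the same set, for 6 treatments on the horizontal axis with 3 arrays per group. Filled points were called changed, open points were not, and lines are medians over the target genes tested, which stand at 1.07 after KBrO3 alone at 4 hr and at -0.14 at 24 hr.

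Members were also compared by their profile over all 24 arrays, each taken as the difference from the mean of its own set's controls. Fos and Jun had a Pearson r of 0.93, Fosl2 and Junb 0.85, Fosb and Jun 0.83 and Fos and Junb 0.80. Fosl1 followed Jun at 0.80 but Fosl2 at 0.07, and no member reached 0.50 with Jund. Among 14354 genes other than the member itself, each by 1 probe, those with the most similar profile were Skil for Fos (r = 0.98), Rrp9 for Fosl1 (0.99), Top1 for Jun (0.98), Cxcl1 for Junb (0.97), Gpr176 for Fosl2 (0.97), Olfr1394 for Fosb (0.97) and Ctps2 for Jund (0.91). These are descriptions over arrays that share treatments and slides, with no test.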

How the data were processed

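Cy3-labeled cRNA, made from the total RNA of 24 samples, was read on 1-color Agilent mouse arrays. The authors deposited the fluorescence intensity of each spot as Agilent Feature Extraction gave it (version 9.5.3.1 for the first set and 12.0.0.7 for the second, per the file headers), with the background removed and detrended within an array but no normalization between arrays. The sets were fitted separately. The series table of the authors' processed values equaled this intensity in 1080432 of 1080432 values.

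Processed intensity was converted to log2, less the 75th percentile of the array's 43379 spots that were no controls. Outlier spots were left out and spots of a probe averaged. Testing was limited to probes that passed the software's background test throughout 1 group or more (27309 probes for set 1, 31809 for set 2). Fits used limma 3.58.1 (lmFit and eBayes, two-sided) in R 4.3.3 with data.table (version 1.17.8). Files, promoters and figures were handled in Python 3.11.15 with numpy 2.4.6, pandas 2.3.3 and matplotlib 3.10.9. The difference between the effects of BPA in the sets came from 1 fit of all 24 arrays over 27179 probes. A call needed a Benjamini-Hochberg adjusted p below 0.05 and a change beyond 1.5-fold, and the criterion of the study's methods, a Bonferroni-adjusted p below 0.01 with the same fold, was an alternative. The steps were tested on simulated data. With 3 arrays per group, the number of arrays limits the precision.

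The members and gene lists were chosen with earlier results of these data known. Every member is named, and of each list up to 3 genes with the largest rise and 3 with the largest fall at 4 hr. Some listed genes are not reported here by name. The fibroblast, epithelial, endothelial and blood cell lists are markers from general knowledge. The alternatives were other scalings, background correction, filters, thresholds, weights, blocks and leaving out each array.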

Additional observations from a re-analysis of the deposited data

Results flagged for a closer look

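Some members differed between conditions in a test of the difference itself, by limma's Benjamini-Hochberg adjusted p and the 1.5-fold limit. The difference between co-exposure and KBrO3 alone changed from 4 to 24 hr by 1.01 for Fosb, 0.60 for Fosl1 and 0.92 for Jund. For Jund the sign turned, from -0.57 at 4 hr to 0.34 at 24 hr. Fosl1 went from -0.42 to 0.18, and Fosb from -0.92 to 0.09. Slide cannot be told apart from these changes. The effect of BPA added to KBrO3 minus the effect of BPA alone at 4 hr was -1.62 for Fos, -2.01 for Fosl1, -1.54 for Fosl2, -1.41 for Jun and -2.03 for Junb. At 24 hr it was -1.41 for Fosl1, -1.08 for Fosl2 and -0.84 for Jun. The treatments in these last comparisons lay on different array sets, which cannot be told apart from them.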

How the results depend on the processing

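Counts of members called are given first as reported and then under each alternative setting that moved them by over 1.5 times, and the cause of these moves was not tested. For KBrO3 alone at 24 hr against control the count of 4 became 2 with quantile normalization, 1 with the array median subtracted, 2 with the Bonferroni criterion and 7 with no fold limit. For co-exposure at 24 hr against control 3 became 6 with no fold limit. For co-exposure against KBrO3 alone at 4 hr 2 became 1 with quantile normalization, 0 with normexp, 0 with the Bonferroni criterion and 6 with no fold limit. At 24 hr that count of 1 became 0 with the array median subtracted, with normexp, with the Bonferroni criterion and with the mean over a gene's probes, and 5 with no fold limit. For the change of that difference from 4 to 24 hr 3 became 0 with normexp, 1 with the Bonferroni criterion and 5 with no fold limit. For BPA alone at 4 hr 5 became 3 with the array median subtracted and in a fit of only the groups compared, and 0 with normexp, the Bonferroni criterion and slide as a fixed block. For BPA alone at 24 hr 1 became 0 with normexp, no filter on dim probes, the Bonferroni criterion, only the groups compared and slide as a fixed block. For BPA alone at 24 hr against 4 hr 2 became 1 with the array median subtracted, and 0 with normexp, the Bonferroni criterion and slide as a fixed block. For the effect of BPA added to KBrO3 minus that of BPA alone 5 at 4 hr became 3 with normexp and with the Bonferroni criterion, and 3 at 24 hr became 0 with normexp, the Bonferroni criterion and only the groups compared. With the replicate block the counts were 2 for BPA alone at 4 hr, 0 at 24 hr and 1 for 24 hr against 4 hr, and the replicate block changed no count of the other 11 comparisons by over 1.5 times. The replicate numbers did not pair the arrays, since deviations of same-numbered arrays had a mean correlation of -0.029 over 30 pairs in set 1 (-0.21 to 0.1) and of 2e-04 over 9 pairs in set 2 (-0.47 to 0.71). Without 1 array at a time the count ranged from 0 to 1 for co-exposure against KBrO3 alone at 24 hr, from 1 to 4 for BPA alone at 4 hr, from 0 to 1 at 24 hr and from 0 to 1 for 24 hr against 4 hr. Signs turned with quantile normalization for Jund after KBrO3 alone at 4 hr (-0.18), Jun in co-exposure at 24 hr (-0.005), Junb in co-exposure against KBrO3 alone at 24 hr (-0.09) and Jund in BPA alone at 24 hr (-0.004), and for the change of that difference from 4 to 24 hr in Fosl2 (-0.027) and Junb (-0.039). With normexp they turned for Fosb in co-exposure at 4 hr (-0.155, called as reported), in BPA alone at 4 hr (0.004), at 24 hr (-0.505) and at 24 hr against 4 hr (-0.509), and for the effect of BPA added to KBrO3 minus that of BPA alone at 24 hr in Fos (0.114) and Fosb (0.668). Fosl1 in BPA alone at 24 hr against 4 hr, at 0.00 as reported, was at -0.009 with quantile normalization, -0.075 with normexp, -0.014 with slide as a random block and -0.576 with slide as a fixed block. The change from 4 to 24 hr in the difference between co-exposure and KBrO3 alone also turned for Fosl2 with slide as a random block (-0.019) and for Jun with the array median subtracted (0.125). Of these sign turns, that of Fosb in co-exposure at 4 hr was the only one of a member called as reported. Without 1 array, Jun in co-exposure at 24 hr ranged from -0.042 to 0.032, Fosb in co-exposure against KBrO3 alone at 24 hr from -0.004 to 0.221 Fos in BPA alone at 24 hr from -0.394 to 0.088, Fosl1 in BPA alone at 24 hr against 4 hr from -0.323 to 0.201 and the change for Fosl2 from -0.088 to 0.064. The stricter filter, the deposited table, 1 fit of all arrays, weights from the signal error, slide as a random block and array weights by set, the last chosen after seeing the data, moved no count by over 1.5 times. Slide as a fixed block could be estimated for 7 of 14 comparisons, and normexp used the median signal in set 2. All members were well above background on all 24 arrays, and each group had only 3 arrays.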
